A study of Homo sapiens with 24 samples.

Results

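MYC, MAX and the MXD factors are transcription factors of one family, and they were followed here in cells treated with a BRAF inhibitor. The network was taken as 10 genes chosen by symbol: MYC, MAX, MXD1, MXD3, MXD4, MXI1, MNT, MGA, MLX and MLXIP. They hold 19 of the 47231 probes of the array and are 10 of the 20046 genes with a named probe. Of their probes 16 passed the filter on dim signals, and 9 of the 10 genes entered the tests, among 13699 genes in all. Gene expression was measured on 24 Illumina bead arrays, each hybridised with RNA of an established human cell line. SW1736 is a thyroid cancer line and SKMEL28 a melanoma line, and the labels give both the BRAFV600E mutation, which the untreated cells carry too. In each line 3 arrays were made after 1 h, 3 after 6 h and 3 after 48 h of 2 µM vemurafenib, an inhibitor of mutant BRAF, and 3 from untreated cells, labelled 0 h. The untreated arrays carry only the 0 h label, so the drug and the time in culture cannot be told apart. Each cancer type is represented by a single line.

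MYC is a basic helix-loop-helix leucine zipper protein that binds DNA as a dimer with MAX, most often at the hexamer CACGTG, called the E-box, and raises the transcription of genes of ribosome assembly, nucleotide synthesis and cell division. MXD1, MXD3, MXD4, MXI1 and MNT pair with MAX at the same sites and bring the SIN3 and histone deacetylase corepressors, while MGA pairs with MAX within a Polycomb-type repressor complex. MLX and its partner MLXIP (MondoA) form a neighbouring branch that reads glucose metabolites. MYC transcription and the stability of its protein are known to depend on ERK, the kinase at the end of the pathway that mutant BRAF drives, and MXD genes are known for rising as cells leave the cycle.

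Levels below are log2 normalised intensities of the brightest probe of a gene, and changes are differences of mean log2 levels with their standard error. Calls are adjusted p under 0.05 by limma with Benjamini-Hochberg adjustment over the 13699 genes of a comparison. All comparisons with 0 h in a line share its 3 untreated arrays. Between 36.8% and 42.0% of probes were detected per array. The median residual SD of a gene was 0.280 in SW1736 and 0.180 in SKMEL28. The fit shares 1 estimate of the spread between the lines, so its adjusted p-values run low for SW1736, and in simulated data with each line's own spread it made more false calls there than its threshold allows. With SW1736 fitted alone, the members called against untreated cells were MYC at 1, 6 and 48 h and MXD3, MXD4 and MXI1 at 48 h. The labels do not say whether replicates came from separate cultures, so the spread behind each p-value may be technical. In bulk RNA, fewer cells of a type and less RNA per cell cannot be told apart. Untreated SW1736 showed PAX8, FOXE1, KRT8, KRT18 and CDH1 on 3 of 3 arrays. TG, TSHR and NKX2-1 of the thyroid list and EPCAM of the epithelial list were detected on 0 of 3. KRT18 was also detected on 3 of 3 untreated SKMEL28 arrays, and EPCAM on 1 of 3. MLANA, TYR, TYRP1, SOX10 and S100B were detected on 0 of 3 untreated SW1736 arrays and on 3 of 3 untreated SKMEL28 arrays. The other melanocyte markers tested, PMEL and MITF, were detected on 2 of 3 and 3 of 3 untreated SW1736 arrays, and each on 3 of 3 untreated SKMEL28 arrays. The drug was read in DUSP6, an ERK phosphatase and ERK target, with called log2 changes of -1.77 in SW1736 and -2.19 in SKMEL28 at 1 h. At 48 h DUSP6 was at -1.12 in SW1736 and -4.31 in SKMEL28, both called. SPRY4, another ERK target, was at -0.22 at 48 h in SW1736, not called, and at -3.33 in SKMEL28, called. In SKMEL28 at 48 h 4 of 7 tested melanocyte markers rose, TYRP1 by 3.66, and 1 fell, where 20% of all genes rose and 18.8% fell. PMEL and SOX10 were not called. The part of these marker changes in the results below was not tested.

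Across the time course MYC fell first, and the MXD genes moved later and in both directions. At 1 h MYC was the one member called of 9 in each line, where 0.212% of all genes were called in SW1736 and 0.175% in SKMEL28. At 6 h 3 of 9 members were called in SW1736 (2 higher, 1 lower), where 8.71% of all genes were called (4.03% higher, 4.68% lower), and 2 of 9 in SKMEL28 (1 higher, 1 lower), where 6.85% were called (2.63% higher, 4.22% lower). At 48 h 5 of 9 were called in SW1736 (3 higher, 2 lower), where 34.3% of all genes were called (18.2% higher, 16.1% lower), and 6 of 9 in SKMEL28 (4 higher, 2 lower), where 38.9% were called (20% higher, 18.8% lower). Against that background the 48 h counts of members are not read as particular to the network. From 1 h to 6 h 2 of 9 were called in SW1736 (7.84% of all genes) and 2 of 9 in SKMEL28 (5.81% of all genes). From 6 h to 48 h 3 of 9 were called in SW1736 (27.5% of all genes) and 7 of 9 in SKMEL28 (32.9% of all genes).

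**Figure D1:**
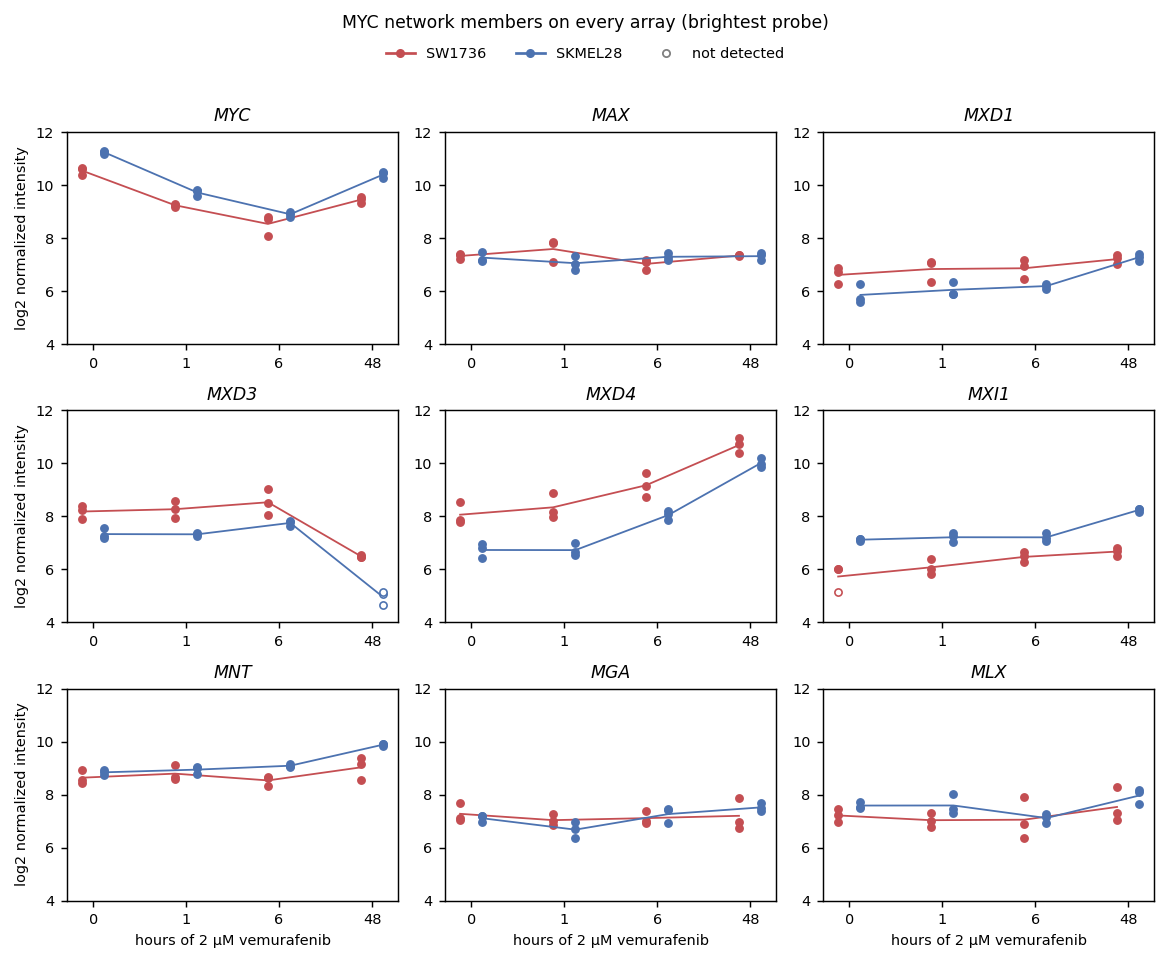
Log2 normalised intensity of the brightest probe of 9 network members (vertical axis) at 0, 1, 6 and 48 h of vemurafenib (horizontal axis) on each of 24 arrays, with lines through the means of 3 arrays. Open points were not detected. MYC dips to its lowest level at 6 h in both lines, MXD4 climbs to 48 h, and MXD3 drops at 48 h.

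MYC transcript was low within 1 h of the drug in both lines, lowest at 6 h and partly back at 48 h. In SW1736 MYC had log2 levels of 10.60, 10.65 and 10.40 at 0 h, of 9.24, 9.19 and 9.30 at 1 h, of 8.10, 8.79 and 8.73 at 6 h, and of 9.32, 9.49 and 9.56 at 48 h. In SKMEL28 it had 11.29, 11.16 and 11.27 at 0 h, 9.78, 9.59 and 9.80 at 1 h, 8.98, 8.91 and 8.81 at 6 h, and 10.27, 10.48 and 10.46 at 48 h. No treated array of either line reached the lowest untreated array of that line. In each line the 48 h arrays lay above all 6 h arrays. At 1 h MYC stood at 40.4% of untreated cells in SW1736 (log2 change -1.31 ± 0.15, limma adjusted p = 6.62e-05) and at 34.9% in SKMEL28 (-1.52 ± 0.15, limma adjusted p = 2.67e-06). At 6 h it stood at 24.8% in SW1736 (-2.01 ± 0.15) and at 19.8% in SKMEL28 (-2.34 ± 0.15). At 48 h it stood at 46.8% in SW1736 (-1.10 ± 0.15, limma adjusted p = 5.27e-06) and at 55.9% in SKMEL28 (-0.84 ± 0.15, limma adjusted p = 0.000108).

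Between the treated times MYC also moved. At 6 h it was lower than at 1 h by a log2 change of -0.71 in SW1736 (limma adjusted p = 0.00468) and of -0.82 in SKMEL28 (limma adjusted p = 0.00106). With SW1736 fitted alone the first of these was no longer called (limma adjusted p = 0.0749). At 48 h it was 1.89-fold higher than at 6 h in SW1736 and 2.83-fold higher in SKMEL28, both called. Ordered by mean, the 8 groups ran from untreated SKMEL28 at 11.24 through untreated SW1736 at 10.55, SKMEL28 at 48 h at 10.40, SKMEL28 at 1 h at 9.72, SW1736 at 48 h at 9.46, SW1736 at 1 h at 9.24 and SKMEL28 at 6 h at 8.90 to SW1736 at 6 h at 8.54. Untreated SW1736 and SKMEL28 at 48 h overlapped, and no other neighbours in that order did.

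A second MYC probe gave the same course against untreated cells and a different one from 6 h to 48 h in SW1736. Its changes at 1, 6 and 48 h were -1.14, -1.62 and -1.23 in SW1736 and -1.41, -2.26 and -0.81 in SKMEL28, all called over the 26673 single probes. Of all single probes 0.139%, 5.61% and 26.1% were called at these times in SW1736, and 0.112%, 4.5% and 30.1% in SKMEL28. Its SW1736 levels were 7.81, 8.18 and 8.75 at 48 h, against 7.63, 8.05 and 7.88 at 6 h, and the groups overlapped. That later change was 0.40 in SW1736 (limma adjusted p = 0.124), against 1.45 in SKMEL28 (limma adjusted p = 9.15e-07), where 20.7% and 25.4% of single probes were called. The difference of the later change between the lines was -1.05 on this probe (limma adjusted p = 0.0061; 11.9% of single probes called) and -0.58 ± 0.22 on the brightest probe (limma adjusted p = 0.0644). For MYC the mean of both probes gave -0.82, without the 6 h replicate 1 array of SW1736 the brightest probe gave -0.81, and without background correction it gave -0.57, all 3 called. The probes thus differ in whether the return of MYC by 48 h was called smaller in SW1736.

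**Figure D2:**
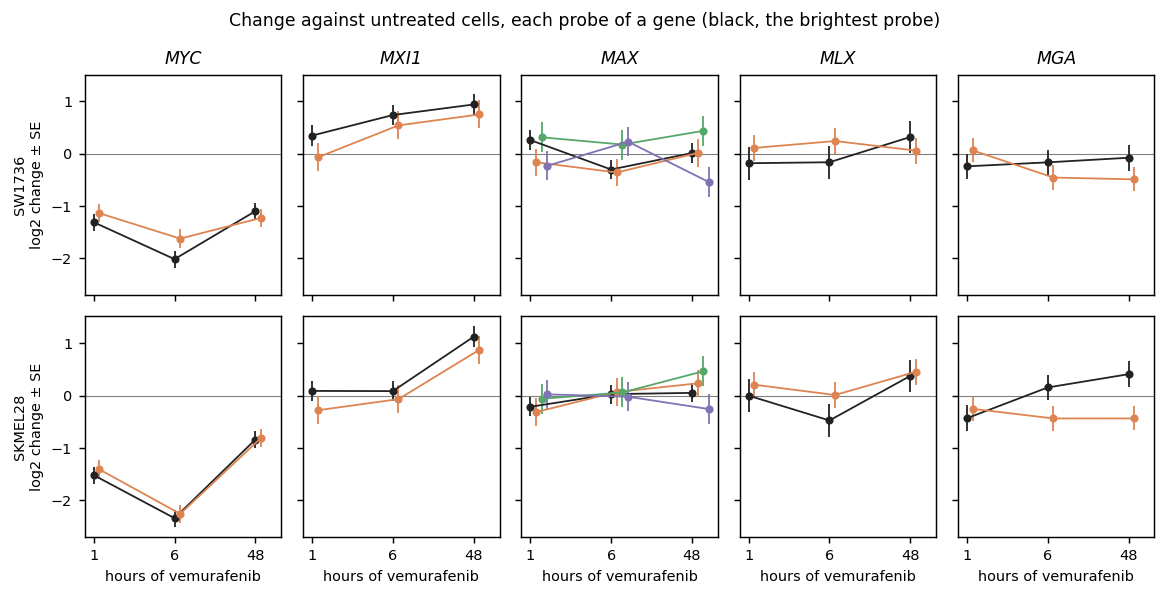
Log2 change ± SE against untreated cells (vertical axis) at 1, 6 and 48 h (horizontal axis) for every kept probe of the 5 genes with more than 1, SW1736 above and SKMEL28 below; black is the brightest probe and the coloured lines are the others. Both MYC probes lie below 0 at every time and both MXI1 probes above 0 at 48 h, while the MGA probes part at 6 and 48 h in SKMEL28.

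MAX, the shared partner that MYC and its antagonists need to bind DNA, was not called in any comparison. Its levels ran between 6.80 and 7.86 on the SW1736 arrays and between 6.81 and 7.48 on the SKMEL28 arrays. At 48 h the change was 0.01 in SW1736 (95% interval -0.35 to 0.38) and 0.06 in SKMEL28 (-0.31 to 0.42). The other 3 MAX probes lay at -0.54 to 0.47 against untreated cells, and none was called. At 6 h against 1 h in SW1736 the brightest probe was at -0.56 (limma adjusted p = 0.0546); it was called without background correction (-0.36), with the stricter filter, and without the 1 h replicate 2 array (-0.80).

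MXD4, a repressor that pairs with MAX, showed the largest rise of the network. In SW1736 its levels were 7.87, 8.55 and 7.77 at 0 h, 8.15, 8.88 and 7.99 at 1 h, 9.65, 9.17 and 8.71 at 6 h, and 10.98, 10.72 and 10.39 at 48 h. In SKMEL28 they were 6.43, 6.81 and 6.95 at 0 h, 6.54, 6.98 and 6.66 at 1 h, 8.19, 7.88 and 8.08 at 6 h, and 10.21, 9.88 and 9.98 at 48 h. All arrays at 6 h and at 48 h lay above all untreated arrays of their line, and the 1 h arrays overlapped with them. At 6 h MXD4 was 2.16-fold higher in SW1736 (log2 change 1.11 ± 0.25, limma adjusted p = 0.00593) and 2.49-fold higher in SKMEL28 (1.32 ± 0.25, limma adjusted p = 0.00109). With SW1736 fitted alone the 6 h call was lost (limma adjusted p = 0.0509). At 48 h it was 6.19-fold higher in SW1736 (2.63 ± 0.25, limma adjusted p = 1.89e-08) and 9.79-fold higher in SKMEL28 (3.29 ± 0.25, limma adjusted p = 2.53e-10). Without background correction the MXD4 change at 6 h in SKMEL28 was 0.84. From 6 h to 48 h it rose further, by 1.52 in SW1736 and by 1.97 in SKMEL28. From 1 h to 6 h it rose by 0.83 in SW1736 (limma adjusted p = 0.0431) and by 1.32 in SKMEL28. The SW1736 call was lost in 5 other settings and without any one of 11 arrays, at 0.60 without the 6 h replicate 1 array.

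MXI1, which also recruits SIN3 through MAX, rose at 48 h in both lines. In SW1736 its levels were 6.02, 6.01 and 5.16 at 0 h, 6.40, 6.00 and 5.83 at 1 h, 6.28, 6.49 and 6.64 at 6 h, and 6.51, 6.70 and 6.81 at 48 h; the lowest untreated array was not detected. In SKMEL28 they were 7.14, 7.15 and 7.07 at 0 h, 7.37, 7.25 and 7.02 at 1 h, 7.20, 7.06 and 7.37 at 6 h, and 8.28, 8.17 and 8.29 at 48 h. The 48 h arrays did not overlap with the untreated ones in either line. The 48 h change was 0.94 ± 0.19 in SW1736 (limma adjusted p = 0.000468) and 1.13 ± 0.19 in SKMEL28 (limma adjusted p = 4.74e-05). A second MXI1 probe rose as well, by 0.75 in SW1736 (limma adjusted p = 0.0403) and by 0.88 in SKMEL28 (limma adjusted p = 0.014). At 6 h MXI1 was already 0.74 ± 0.19 higher in SW1736 (limma adjusted p = 0.0157), against 0.09 ± 0.19 in SKMEL28. That early call was lost in 5 of 10 other settings and without the 0 h replicate 3 or the 6 h replicate 3 array, where MXI1 was at 0.46 and 0.65. Without background correction the SW1736 values were 0.31 at 6 h and 0.41 at 48 h.

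MXD1, one of the first MAX-binding repressors described, rose late. Its levels in SW1736 were 7.24, 7.37 and 7.02 at 48 h, against 6.88, 6.25 and 6.71 in untreated cells. In SKMEL28 they were 7.14, 7.30 and 7.41 at 48 h, against 5.72, 6.25 and 5.60 in untreated cells. Neither line's groups overlapped. The 48 h change of MXD1 was 0.60 ± 0.22 in SW1736 (limma adjusted p = 0.0422) and 1.43 ± 0.22 in SKMEL28 (limma adjusted p = 1.7e-05). Without background correction it was 0.33 and 0.71, both called. The SW1736 call was lost in 5 of 10 other settings and without any one of 4 arrays (0 h replicates 2 and 3, 48 h replicates 1 and 2; 0.42 without the 0 h replicate 2). At 6 h the change was 0.25 in SW1736 and 0.33 in SKMEL28, neither called.

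MNT, a constitutive MAX partner that competes with MYC, had levels of 9.90, 9.92 and 9.84 at 48 h in SKMEL28, against 8.92, 8.86 and 8.75 in untreated cells. The rise was 1.05 ± 0.19 (limma adjusted p = 8.15e-05), and the change from 6 h to 48 h was 0.80, called as well. In SW1736 its levels were 9.17, 9.37 and 8.55 at 48 h, against 8.53, 8.93 and 8.45 in untreated cells, and the groups overlapped. That change was 0.39 ± 0.19 (limma adjusted p = 0.113), and it was called without the 48 h replicate 3 array (0.63) or the 0 h replicate 2 array (0.54). The change from 6 h to 48 h in SW1736 was 0.49 (limma adjusted p = 0.0518), and MNT was called without background correction (0.41), with the stricter filter, the mean of probes or the replicate block, and without the 48 h replicate 3 array (0.74), the 0 h replicate 2 array or the 1 h replicate 1 or 3 array.

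MXD3 went the other way from the other MXD genes. It has been described, among the family, as expressed in dividing cells. In SW1736 its levels were 7.91, 8.40 and 8.24 at 0 h, 7.94, 8.59 and 8.29 at 1 h, 9.04, 8.52 and 8.05 at 6 h, and 6.54, 6.48 and 6.46 at 48 h. In SKMEL28 they were 7.55, 7.26 and 7.18 at 0 h, 7.37, 7.32 and 7.28 at 1 h, 7.84, 7.80 and 7.62 at 6 h, and 5.06, 4.65 and 5.14 at 48 h. The 3 SKMEL28 arrays at 48 h were not detected, and all 48 h arrays lay below every earlier array of their line. At 48 h MXD3 was 3.22-fold lower than in untreated cells in SW1736 (log2 change -1.69 ± 0.21, limma adjusted p = 7.78e-07). In SKMEL28 it was at least 4.15-fold lower (limma adjusted p = 2.1e-09), a bound set by the lowest detected signals. Against 6 h it was 4.11-fold lower in SW1736 and at least 5.56-fold lower in SKMEL28. Without background correction the 48 h changes of MXD3 were -1.07 in SW1736 and -1.11 in SKMEL28. At 1 h and 6 h no MXD3 change was called; the 6 h values were 0.35 in SW1736 and 0.42 in SKMEL28.

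**Figure D3:**
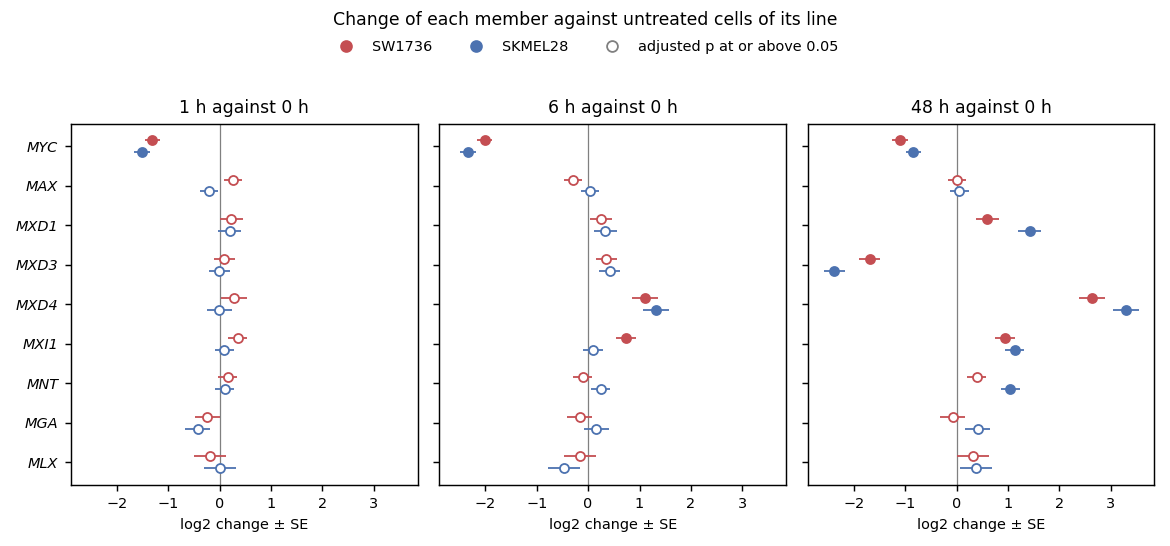
Log2 change ± SE (horizontal axis) of 9 members (vertical axis) at 1, 6 and 48 h against untreated cells, SW1736 in red and SKMEL28 in blue, each from 3 arrays against 3. Filled points have a limma adjusted p under 0.05: MYC is the one filled gene at 1 h, and at 48 h MXD4 lies at 2.63 and 3.29 and MXD3 at -1.69 in SW1736; the MXD3 point of SKMEL28 at 48 h comes from arrays where the probe was not detected, so its place marks no measured size.

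The promoter windows of MXD4, MNT and MXI1 are shown because these genes rose by 48 h in SKMEL28 and their windows hold one of the motifs searched; the MXD1 window holds neither. RefSeq (GRCh38.p14) gives windows for 9 of the 10 members, not for MYC, each running from 250 bases before to 50 bases after a transcription start. Both strands were searched for CACGTG, the E-box, and for GTAAACA, a core forkhead motif, and no window printed here holds both. Capitals mark a match. MXD4 lies on chr4:2262060-2262359 on the minus strand and MNT on chr17:2401011-2401310 on the minus strand. MXI1 has 3 windows on the plus strand of chromosome 10, of which chr10:110209981-110210280 and chr10:110225746-110226045 hold a match.
MXD4 promoter: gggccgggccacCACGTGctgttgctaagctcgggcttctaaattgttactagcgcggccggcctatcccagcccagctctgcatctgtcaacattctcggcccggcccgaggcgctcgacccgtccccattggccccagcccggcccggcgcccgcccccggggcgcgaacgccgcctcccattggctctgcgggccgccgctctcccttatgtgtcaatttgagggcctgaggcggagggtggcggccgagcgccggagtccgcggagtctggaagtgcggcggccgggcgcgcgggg
MNT promoter: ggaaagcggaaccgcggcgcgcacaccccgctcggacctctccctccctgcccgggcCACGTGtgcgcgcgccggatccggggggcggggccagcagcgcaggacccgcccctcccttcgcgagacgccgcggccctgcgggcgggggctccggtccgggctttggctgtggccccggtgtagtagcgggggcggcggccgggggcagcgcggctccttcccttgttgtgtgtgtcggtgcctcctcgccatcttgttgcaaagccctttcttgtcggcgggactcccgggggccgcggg
MXI1 promoter 2: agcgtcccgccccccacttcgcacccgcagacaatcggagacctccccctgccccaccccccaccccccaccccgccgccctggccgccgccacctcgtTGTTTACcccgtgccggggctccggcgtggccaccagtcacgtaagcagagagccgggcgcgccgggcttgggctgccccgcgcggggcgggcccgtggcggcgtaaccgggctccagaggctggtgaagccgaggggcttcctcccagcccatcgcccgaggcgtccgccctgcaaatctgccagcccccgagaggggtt
MXI1 promoter 3: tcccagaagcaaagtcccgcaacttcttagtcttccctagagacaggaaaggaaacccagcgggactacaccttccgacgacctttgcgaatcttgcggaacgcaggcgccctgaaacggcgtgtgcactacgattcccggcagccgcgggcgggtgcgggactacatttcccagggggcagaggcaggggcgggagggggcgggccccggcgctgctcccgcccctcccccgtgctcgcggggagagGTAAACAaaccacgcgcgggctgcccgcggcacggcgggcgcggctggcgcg
The E-box begins at -238 in MXD4 and at -193 in MNT, counted from the start, and at -50 in MLX. It stood in 3 of 9 members with a window (33.3%), against 8.77% of the 27305 genes of the table. Of the list of MYC-activated targets 16 of 32 genes held it (50%), and of the MYC-repressed targets 2 of 8 (25%). The forkhead motif begins at -151 and -2 in the MXI1 windows, as TGTTTAC on the printed strand in the first and as GTAAACA in the second. Of all 35116 windows 3.42% held it, and no other member did. A match says only that these letters are present.

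MGA, the large MAX partner of the Polycomb-type complex, was not called in any comparison with the settings used here. Its brightest probe ran from 6.74 to 7.88 in SW1736 and from 6.37 to 7.67 in SKMEL28. At 48 h the difference was -0.08 in SW1736 (95% interval -0.57 to 0.42) and 0.41 in SKMEL28 (-0.09 to 0.91). With array weights the SKMEL28 change of MGA was called at 48 h (0.43) and from 1 h to 6 h (0.59), and the change from 1 h to 6 h also with SKMEL28 fitted alone. A second, dim MGA probe, detected on 6 of 24 arrays, lay at -0.49 in SW1736 and -0.43 in SKMEL28 at 48 h, so in SKMEL28 the 2 probes had opposite signs. MLX, the partner of MondoA, was called once. From 6 h to 48 h in SKMEL28 it rose by 0.85 ± 0.31 (limma adjusted p = 0.0387), with levels of 7.64, 8.10 and 8.16 at 48 h, against 6.92, 7.25 and 7.17 at 6 h. The call was lost without the filter and without any one of 5 of those 6 arrays (0.75 to 0.92), that is all but the 48 h replicate 1 array, and the second MLX probe gave 0.44 (limma adjusted p = 0.223). MLXIP, which encodes MondoA, has 1 probe here, detected on 2 of 24 arrays, and was not tested.

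Untreated SW1736 and untreated SKMEL28 cells differed in 5 of 9 members (3 higher, 2 lower in SW1736), where 50.2% of all genes were called. MYC was lower in untreated SW1736 by 0.69 (log2 change -0.69 ± 0.15, limma adjusted p = 0.000546), and its second probe gave -1.05 (40.1% of single probes called). MXI1 was also lower, at -1.39 ± 0.19 (limma adjusted p = 1.59e-06). MXD4 was 2.52-fold higher (1.33 ± 0.25), MXD3 1.81-fold higher (0.85 ± 0.21) and MXD1 1.69-fold higher (0.76 ± 0.22). For MAX, MGA, MNT and MLX the differences were 0.06, 0.17, -0.20 and -0.37, none called.

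Whether the lines responded differently was tested as the SW1736 change minus the SKMEL28 change. At 1 h 0 of 9 members were called (0.0219% of all genes; 0 at an unadjusted p under 0.05), at 6 h 0 of 9 (4.24%; 1 unadjusted), and at 48 h 0 of 9 (21%; 3 unadjusted) by limma. For MYC the differences were 0.21 at 1 h (95% interval -0.24 to 0.66), 0.33 at 6 h (-0.12 to 0.77) and -0.26 at 48 h (-0.71 to 0.19). For MXD4 at 48 h the difference was -0.66 (-1.40 to 0.07). MXD1 and MNT at 48 h were at -0.83 (limma adjusted p = 0.0659) and -0.65 (limma adjusted p = 0.0822), and MXD3 at 0.69 (limma adjusted p = 0.0979). MXD3 was detected on 0 of 3 SKMEL28 arrays at 48 h, so the size of its difference is uncertain. Without background correction 1 member, MNT, was called at 48 h (-0.59), and leaving out one array in turn gave 0 to 1. Leaving out the 0 h replicate 2 array of SKMEL28 or that of SW1736, MXD1 was called, at -1.03 and -1.01. It was also called without the 1 h replicate 2 array of SW1736 (-0.83), and MNT without the 48 h replicate 2 array of SW1736 (-0.82).

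In the change from 6 h to 48 h 1 of 9 members, MXI1, was called between the lines (18.2% of all genes). It gained 0.20 ± 0.19 in SW1736 and 1.04 ± 0.19 in SKMEL28, a difference of -0.84 ± 0.27 (limma adjusted p = 0.0339). The second MXI1 probe had mean levels of 5.96 at 6 h and 6.17 at 48 h in SW1736, where the groups overlapped. In SKMEL28 that probe had 6.14 and 7.08, and the groups did not overlap. The call was lost with median scaling (limma adjusted p = 0.0938), with probes fitted singly (0.052 adjusted) and without any one of 7 arrays, where the difference of MXI1 was -0.83 to -0.75. Those were the 6 h replicates 2 and 3 and the 48 h replicate 1 arrays of SW1736, and the 6 h replicates 1 and 2 and the 48 h replicates 1 and 3 arrays of SKMEL28. MXD1 was called in the same comparison without the 6 h replicate 2 array of SW1736 (-0.95), and MXD3 without the 6 h replicate 1 array of that line (1.02). The size for MXD3 is again uncertain, as its probe was not detected in SKMEL28 at 48 h.

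MYC and the MXD genes followed different courses. Over the 8 group means, each taken from its line's own mean, MXD1, MXD4, MXI1 and MNT correlated with each other at r = 0.82 to 0.96, and MXD3 with them at -0.91 to -0.83. MYC correlated with these 5 genes at -0.27 to 0.05, and with MAX and MLX at 0.27 and 0.53. These are descriptions over 8 points that share their arrays, with no test. Likeness by the same measure was searched among 6480 genes. These were called at least once against untreated cells and detected on most arrays of some group in each line. Among them, those most like MYC were PHLDA1 at 0.94, SNORD38A at 0.93, IER3 at 0.92, SEPTIN7P2 at 0.90, ZNF696 at 0.89 and SPRY2 at 0.89. SPRY2 encodes an inhibitor of receptor signalling to ERK and IER3 an immediate early protein. At 6 h SPRY2 stood at -2.54 in SW1736 and at -5.40 in SKMEL28. The most opposite were TECR at -0.92, RNF144B at -0.89, BLOC1S2 at -0.88, NUDT2 at -0.86, EMX2 at -0.82 and MEIS2 at -0.81. Most like MXD4 were REPS2, NUMA1, RBM5 and HADHB, with r from 0.994 to 0.997.

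**Figure D4:**
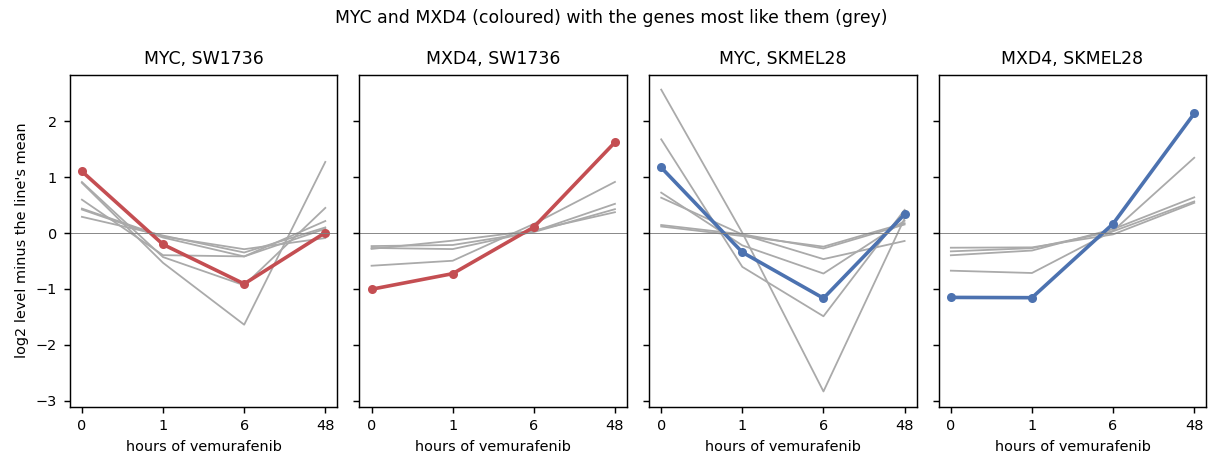
Mean log2 level minus the mean of the line (vertical axis) at 0, 1, 6 and 48 h of vemurafenib (horizontal axis) for MYC and MXD4 in colour, with the 6 genes most like MYC and the 4 most like MXD4 in grey. MYC and its look-alikes turn up after 6 h, while MXD4 and its look-alikes climb to 48 h.

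Genes that MYC is known to activate were not called at 1 h, and many were lower at 6 h and most at 48 h. Of a list of 40 such genes 38 were tested. At 1 h 0 of 38 were called in either line by limma (2 at an unadjusted p under 0.05 in SW1736, 0 in SKMEL28). Of all genes 0.212% were called in SW1736 and 0.175% in SKMEL28 at that time. With so few calls over all genes, the lack of calls in this list does not show a delay behind MYC. At 6 h 18 fell and 1 rose in SW1736, where 4.68% of all genes fell, with a median change of -0.47 against 0.01 over all genes. In SKMEL28 6 fell and 0 rose at 6 h, where 4.22% of all genes fell, with a median of -0.15. With each line fitted alone 7 fell at 6 h in SW1736 and 12 in SKMEL28, with array weights 11 and 13, and without background correction 10 in SKMEL28. At 48 h 30 fell in each line, where 16.1% of all genes fell in SW1736 and 18.8% in SKMEL28, with medians of -0.80 in SW1736 and -0.96 in SKMEL28, against 0.02 and 0.03 over all genes. MRTO4, a ribosome assembly factor, was at -1.42 and NOLC1, a nucleolar protein, at -1.31 at 6 h in SW1736, and both were called. ODC1, the rate-limiting enzyme of polyamine synthesis, changed by -2.39 at 48 h in SW1736, and CDC25A, a phosphatase that activates cyclin-dependent kinases, by -2.23, both called. CDC25A was at least 6.81-fold lower at 48 h in SKMEL28, where the called changes of CDCA7 and NOLC1 were -2.15 and -2.05. CDCA7 was also called at -1.37 at 6 h and -2.33 at 48 h in SW1736 and at -0.83 at 6 h in SKMEL28. POLR1B, a subunit of RNA polymerase I, fell by 1.10 at 6 h in SKMEL28 and stood at -0.17 at 48 h, not called. Those that rose in SW1736 were SHMT2 at 6 h (0.67) and BCAT1 at 48 h (0.69), neither called with median scaling, and SHMT2 not with SW1736 fitted alone. From 6 h to 48 h 16 of these genes fell and 2 rose in SW1736, and 27 fell and 1 rose in SKMEL28, where 12.6% and 15.1% of all genes fell. The part of MYC in the changes of this list was not tested.

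Genes that MYC is known to repress were mixed. Of 11 tested of 12 listed, 5 rose and 1 fell at 6 h in SW1736, and 3 rose and 1 fell in SKMEL28. Of all genes 4.03% rose and 4.68% fell in SW1736 at that time, and 2.63% rose and 4.22% fell in SKMEL28. With SW1736 fitted alone, with array weights or without the 6 h replicate 1 array, 3 rose in SW1736. The medians were 0.66 and -0.00 at 6 h and 0.14 and 0.43 at 48 h. At 48 h 5 rose and 2 fell in SW1736, and 4 rose and 3 fell in SKMEL28, where 18.2% of all genes rose and 16.1% fell in SW1736, and 20% rose and 18.8% fell in SKMEL28. GADD45B, a stress-induced gene, rose by 1.27 at 6 h in SKMEL28, a call lost without the 0 h replicate 2 or 3 or the 6 h replicate 3 array. It was detected on 1 of 3 untreated SKMEL28 arrays, so the size of that rise is uncertain. GAS1, a growth arrest protein, rose by 1.67 at 6 h and 2.63 at 48 h in SW1736, and by 0.83 and 0.91 in SKMEL28. CCNG2, an unusual cyclin of arrested cells, rose by 1.53 and 1.56 in SW1736 and by 0.82 and 1.72 in SKMEL28. With median scaling neither GAS1 nor CCNG2 was called at 6 h in SKMEL28, and 1 of the list rose. The CCNG2 call there was also lost without the 0 h replicate 1 or the 6 h replicate 2 array. CDKN1C, an inhibitor of cyclin-dependent kinases, rose at 48 h by 1.82 in SW1736 and by 0.87 in SKMEL28, both called. It was detected on 2 of 3 untreated arrays of each line, so the sizes of these rises are uncertain. CDKN2B, another such inhibitor, rose in SW1736 by 0.91 at 6 h and by 1.08 at 48 h, both called. In SKMEL28 CDKN2B was not called at either time. CDKN1B, of the same class, rose at 48 h by 0.81 in SW1736 and by 1.77 in SKMEL28, both called. CDKN1A, a p53 target and inhibitor of the same class, was at -0.56 in SW1736 and -1.84 in SKMEL28 at 48 h, and GADD45A, a relative of GADD45B, at -0.77 and -1.70, all called. GADD45A was also at -0.74 at 6 h in SW1736, a call lost with that line fitted alone. The SW1736 call of CDKN1A was lost with array weights and without the 0 h replicate 2 or the 48 h replicate 3 array, and at 6 h in that line it rose by 0.68. NDRG1 was at -0.67 at 6 h and -0.48 at 48 h in SKMEL28; these calls were lost without any one of 6 and of 16 arrays, and the 48 h call also with no filter.

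Both MondoA targets on the list were tested. TXNIP, an inhibitor of glucose uptake, rose by 0.96 at 6 h and 1.16 at 48 h in SW1736, and by 0.96 and 1.98 in SKMEL28. ARRDC4 rose by 1.22 and 1.48 in SKMEL28, but fell at 48 h in SW1736 (-0.95); without the 48 h replicate 1 array of SW1736 that call was lost. Of the MYC relatives 4 of 5 were tested, and USF2 alone was called, at 0.71 at 48 h in SKMEL28 (not with median scaling), where 20% of all genes rose. MLXIPL was detected on 0 SKMEL28 arrays, and MYCL on at most 1 array of any group. The lack of a call for these genes therefore says little.

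Cofactors and regulators of MYC stability were called mostly at 48 h. Of 17 tested of 20 listed, 8 fell and 1 rose in SW1736, and 7 fell and 2 rose in SKMEL28. Of all genes 16.1% fell and 18.2% rose in SW1736 at that time, and 18.8% fell and 20% rose in SKMEL28. AURKA, a mitotic kinase that binds MYC family proteins, was at -3.40 in SW1736 and -4.23 in SKMEL28, both called. CIP2A, which protects MYC from the phosphatase PP2A, was at -1.70 in SW1736, called, and was at least 3.42-fold lower in SKMEL28. It was detected on 1 of 3 SW1736 arrays at 48 h, so the size of that fall is uncertain. SKP2, a ubiquitin ligase subunit, was at -1.49 in SW1736 and -1.19 in SKMEL28, both called. RUVBL1, a chromatin ATPase, was at -1.19 in SW1736 and -1.30 in SKMEL28, both called. KAT2A rose by 0.59 in SW1736, and PPP2R5A and FBXW7, parts of the machinery that degrades MYC, by 0.94 and 0.60 in SKMEL28. In SW1736 the changes of PPP2R5A and FBXW7, 0.37 and 0.16, were not called. GSK3B, on the same list, was called lower in both lines, at -0.71 in SW1736 and -0.44 in SKMEL28. The calls of KAT2A and FBXW7 were lost with median scaling. That of FBXW7 was also lost with the mean of probes (0.29) and without any one of 5 arrays. At 6 h 1 rose and 1 fell in SW1736, where 4.03% of all genes rose and 4.68% fell. They were KAT5, an acetyltransferase (0.71), and SKP2 (-0.66), neither called with SW1736 fitted alone or with the mean of probes, which gave KAT5 0.06 and SKP2 -0.26; KAT5 was also lost with median scaling, with array weights and without any one of 3 arrays. In SKMEL28 at 6 h, where 2.63% of all genes rose and 4.22% fell, 1 rose and 3 fell. PPP2R5A rose (0.65), a call lost with median scaling and without the 0 h replicate 1 array. WDR5, a chromatin scaffold that binds MYC (-0.65), KAT2A (-0.60) and RUVBL1 (-0.51) fell there, RUVBL1 not with the mean of probes, and KAT2A not without any one of 4 arrays. Of these 3 genes 1 fell without the 0 h replicate 1 or the 6 h replicate 2 array.

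Among the corepressors of MXD and MNT 13 of 14 were tested, and 0 were called at 6 h in either line by limma (2 at an unadjusted p under 0.05 in SW1736, 1 in SKMEL28). Of all genes 8.71% were called in SW1736 and 6.85% in SKMEL28 at that time. At 48 h 2 rose and 3 fell in SW1736, and 4 rose and 5 fell in SKMEL28. The shares of rising genes, 2 of 13 and 4 of 13, stand beside 18.2% and 20% of all genes, and those of falling genes beside 16.1% and 18.8%. With SW1736 fitted alone 0 fell there, and without any one of 4 SW1736 arrays (0 h replicates 2 and 3, 48 h replicates 2 and 3) or with array weights 1 did. In SKMEL28 2 fell without the 48 h replicate 3 array and 3 with the mean of probes, and 3 rose with median scaling, no filter, the mean of probes or the replicate block. SIN3B, a scaffold, rose by 1.28 in SW1736 and by 0.53 in SKMEL28 (limma adjusted p = 0.0448). SAP18, a SIN3 complex subunit, rose by 1.09 in SW1736 and was at least 3.16-fold higher in SKMEL28. HDAC1, the deacetylase, was at -0.51 in SW1736, a call lost without the 0 h replicate 2 or the 48 h replicate 2 array, and at -0.59 in SKMEL28, called. SIN3A, the other scaffold (-0.48), and ING2, a chromatin reader (-0.38), fell in SW1736, but neither with that line fitted alone or with array weights, and SIN3A was lost without any one of 4 arrays and ING2 without any one of 18. In SKMEL28 RBBP4, a histone chaperone, rose by 1.00, against 0.14 with the mean of its probes, not called, and ARID4B, a SIN3 complex subunit, by 0.86. RBBP7, a relative of RBBP4 (-0.59), and ING2 (-0.45) fell there; ING2 was lost with the mean of probes and without any one of 3 arrays. Of the MGA complex 9 of 10 were tested: 2 rose and 4 fell at 48 h in SW1736, and 4 rose and 2 fell in SKMEL28, beside the same shares of all genes. With SW1736 fitted alone 0 rose and 2 fell in SW1736, with array weights 2 fell, and with median scaling 0 rose in SW1736 and 2 in SKMEL28. TFDP1, the dimer partner of E2F6, was at -1.40 in SW1736 and -1.07 in SKMEL28, and PCGF6, a Polycomb ring finger protein, at -0.85 and -0.53, all called; the SKMEL28 call of PCGF6 was lost without the 48 h replicate 2 array. RING1, a ubiquitin ligase, rose by 0.44 in SW1736, a call lost with median scaling (0.17) and with that line fitted alone, and by 1.15 in SKMEL28. RYBP, a RING1 partner, rose by 0.47 in SW1736 and 0.50 in SKMEL28, both lost with median scaling, and the SW1736 call also with that line alone and without the 0 h replicate 3 array. YAF2, a relative of RYBP, rose by 0.86 in SKMEL28. CBX1, a heterochromatin protein, fell in SW1736 (-0.78), a call lost with that line alone, with array weights and without any one of 4 arrays. At 6 h 1 rose and 1 fell in SW1736, RYBP (0.46) and TFDP1 (-0.52), where 4.03% of all genes rose and 4.68% fell. Both calls were lost with that line alone and with array weights. That of RYBP was also lost with median scaling and without any one of 4 arrays. That of TFDP1 was also lost with the mean of probes (-0.33) and without any one of 3 arrays. In SKMEL28 at 6 h 0 were called by limma (1 at an unadjusted p under 0.05), where 2.63% of all genes rose and 4.22% fell. Against those shares the 6 h counts are not read as particular to the list. In SW1736 at 6 h 3 fell without background correction or with the authors' values, and 2 with no filter or the stricter filter.

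**Figure D5:**
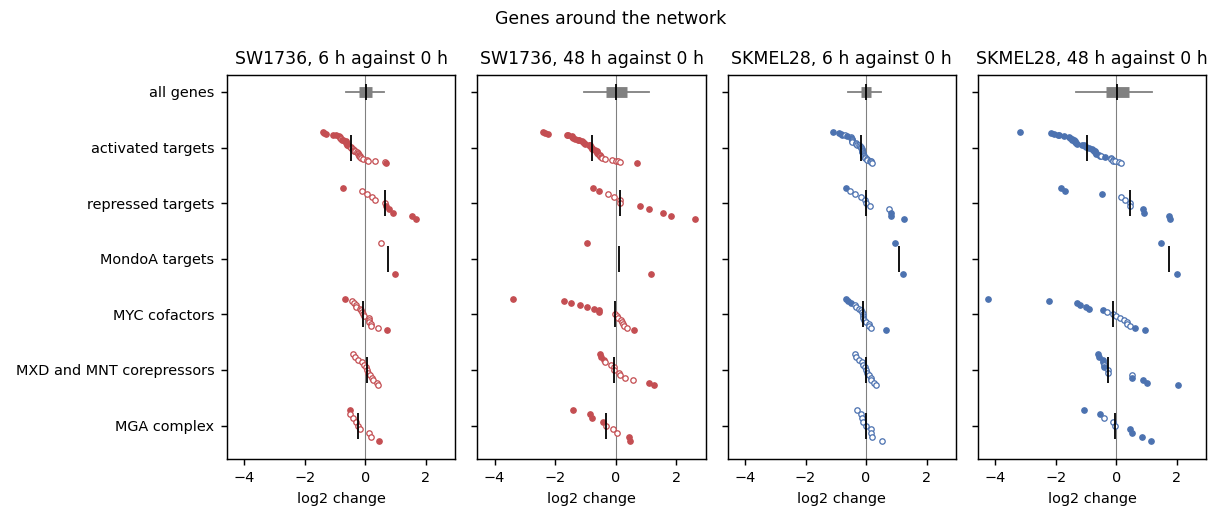
Log2 change against untreated cells (horizontal axis) at 6 and 48 h for each tested gene of 6 lists (vertical axis), SW1736 in red and SKMEL28 in blue; filled points have a limma adjusted p under 0.05, black bars are medians, and the grey bar and line span the middle and nearly all of 13699 genes (25th to 75th and 5th to 95th percentiles). The activated targets lie left of all genes, with medians of -0.47 and -0.80 in SW1736 and -0.15 and -0.96 in SKMEL28.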

How the data were processed

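Of 24 RNA samples, 24 Illumina bead arrays were made. The authors' deposited probe table gives intensity, not normalised between arrays, and per the file headers a detection p-value beside each signal. A second table the authors deposited holds normalised log2 values, and its fit gave the same member calls as omitting background correction; the submitters' processing notes name Partek. Probe symbols came from the platform annotation (30113 probes with 1 symbol, 8 with several, 17110 with none).

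Intensities were corrected with normexp from the detection p-values (offset 16), quantile normalised and taken to log2 (limma 3.58.1, R 4.3.3). A probe entered the fit if 3 or more arrays detected it at p under 0.05, which left 26673 of 47231, and the brightest stood for its gene. A model with a mean for each of 8 groups was fitted over all 24 arrays, with Benjamini-Hochberg adjustment within each of 15 comparisons. Bounds use the lowest detected signals. Arrays carry no molecule count, so their number limits precision, and the highest correlation between arrays was 0.991. The labels' numbers did not meet the level set for pairing. The fit was tested on simulated data, where it called most but not all of the planted changes. With the spread shared, it made too many false calls in SW1736, the noisier line.

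All 10 members are named. From each gene list, up to 3 genes each way with the largest called change are named, and GSK3B, MYCL and MLXIPL besides. For likeness the 6 nearest and 6 farthest genes for MYC and the 4 nearest for MXD4 are named. Members and lists were chosen with earlier results of these data known. Alternatives were background correction, scaling, the authors' values, the filter, averaging or single probes, each line alone, array weights, the replicate block and each array left out; list counts and list genes were added to these after seeing the data.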

Additional observations from a re-analysis of the deposited data

Results flagged for a closer look

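The change of MXI1 from 6 h to 48 h differed between the lines by a test of the difference itself. MXI1 gained 0.20 in SW1736 and 1.04 in SKMEL28, a difference of -0.84 ± 0.27 on the log2 scale (limma adjusted p = 0.0339). The call was lost with median scaling, with probes fitted singly and without any one of 7 arrays. At 6 h MXI1 stood at 0.74 against untreated cells in SW1736 and at 0.09 in SKMEL28. The SW1736 value was 0.46 and not called without the untreated replicate 3 array, where MXI1 was not detected, and 0.31 and not called without background correction. The second MXI1 probe had mean levels of 5.42 at 0 h and 5.96 at 6 h in SW1736, and of 6.20 and 6.14 in SKMEL28. Its groups overlapped in both lines.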

How the results depend on the processing

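Of 38 called results of the members, 354 of 374 values under other settings and 883 of 912 with one array left out stayed called in the same direction, and the rest lost the call. Leaving out an array outside a comparison's groups keeps the size of its change and can move only its standard error and adjusted p. Most of the 912 values are of that kind, so 883 overstates how well the calls hold. The authors' values gave the same member calls as no background correction, so they add no independent values. No direction reversed, and no MYC change against untreated cells lost its call. For the 6 h change in SW1736 1 member was called, against 3, with each line fitted alone. For 6 h against 1 h in SW1736, 1 in place of 2 was called with median scaling, no filter, probes fitted singly or array weights, and 0 with each line alone. For the line difference at 48 h, 1 in place of 0 was called without background correction and with the authors' values. For the line difference from 6 h to 48 h, 2 in place of 1 were called without background correction, with the authors' values or with the mean of probes, and 0 with median scaling or probes fitted singly. The extra member was MNT at 48 h and MYC from 6 h to 48 h, MYC at -0.57 without background correction and -0.82 with the mean of probes. With each array left out in turn, counts in SW1736 were 1 to 1 at 1 h, 2 to 3 at 6 h, 4 to 6 at 48 h, 1 to 3 from 1 h to 6 h and 3 to 4 from 6 h to 48 h. In SKMEL28 they were 1 to 1, 2 to 2, 6 to 6, 2 to 2 and 6 to 7. The line differences gave 0 to 0, 0 to 0, 0 to 1 and 0 to 3, and untreated lines 5 to 5. The cause of these moves was not tested.

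The deviations of same-numbered arrays had correlations of -0.002 to 0.179 in SW1736 and -0.023 to 0.074 in SKMEL28, and the median was 0.068 in SW1736, against -0.032 between different numbers. Not every pair was over 0.1, the level set for pairing, and 11 of 12 SW1736 arrays and 7 of 12 SKMEL28 arrays correlated best with their own number, a hint from the data and not from the design. With the replicate block the counts were 1, 3, 5, 2 and 4 in SW1736 and 1, 2, 6, 2 and 7 in SKMEL28; the one call it added was MNT from 6 h to 48 h in SW1736 (0.49, limma adjusted p = 0.0403). Median scaling moved the split of all called genes toward lower ones: at 6 h 228 higher and 688 lower in SW1736, against 552 and 641, and 159 higher and 723 lower in SKMEL28, against 360 and 578. At 48 h it gave 1596 and 2378 in SW1736, against 2487 and 2205, and 1856 and 2724 in SKMEL28, against 2746 and 2582. From 1 h to 6 h it gave 219 and 537 in SW1736, against 513 and 561, and 113 and 708 in SKMEL28, against 311 and 485. Under it the median of all genes shifted to -0.13 at 6 h and to -0.15 from 1 h to 6 h in SKMEL28. Called genes at 6 h numbered 489 in SW1736 and 1832 in SKMEL28 with each line alone and 618 and 2053 with array weights, against 1193 and 938; at 1 h in SW1736 they were 4 and 9, against 29. In SKMEL28 at 1 h 70 were called with array weights and 14 with median scaling, against 24. The list counts and list genes were put through the same settings after the data were seen. The line fitted alone could not be applied to differences between lines. MXI1 was not detected on 1 untreated SW1736 array, and MXD3 was detected on 0 of 3 SKMEL28 arrays at 48 h, which limits their sizes.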
